A study of Mus musculus with 11 samples.

Results

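Collagens, laminins, integrins, elastic fibre proteins and their associated genes were followed in mouse testis RNA as a fixed list of 51 genes, which were read by symbol from a table of 24411 genes. All 51 were found in the table. The list was sorted here by role into 5 fibrillar collagen genes, 3 collagen VI genes, 6 basement membrane collagen genes, 8 laminin genes, the 3 genes of the nidogens and perlecan, 8 genes of fibronectin and elastic fibres, 4 genes of small proteoglycans and Sparc, 9 integrin genes, and 5 genes of proteases and their inhibitors.

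The testes came from mice aged 20 weeks, which received no treatment, and comprised 4 WT, 4 Irp1-/- and 3 Irp2-/- samples. WT mice were C57Bl/6J. Irp1-/- mice lacked iron regulatory protein 1 in the whole body through the Aco1 tm1Roua allele on a C57Bl/6J background, with WT littermates bred from heterozygotes, as the study's methods state. Irp2-/- mice were global knockouts of Ireb2, and neither their allele, strain background and breeding nor whether the WT mice were their littermates is given in the sources used here. Any such difference cannot be told apart from the genotype in the comparisons with Irp2-/-. Both knockouts were global, so loss of the protein was not limited to the testis or to 1 cell type. The capsule was removed before RNA extraction, and polyadenylated RNA of the whole organ was sequenced, so germ cells, Sertoli cells, peritubular cells, Leydig cells and vessels were measured together. The labels give separate samples but do not say more on how they relate, so p-values measure the spread between these samples.

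Depth lay between 15902473 and 22451417 counts per sample over the 3 groups. Ireb2 read 61.6 to 63.1 CPM (counts scaled to a common library total) in Irp2-/- against 131 to 144 CPM in WT, and Aco1 read 7.94 to 9.16 CPM in Irp1-/- against 9.79 to 12.9 CPM in WT, so each targeted gene was lower in every sample of its own knockout. Both were still counted there, and the exons each allele removes were not examined. Markers of spermatids summed to 12713 to 17196 CPM and those of Sertoli cells to 162 to 198 CPM, whereas the 5 epididymis markers summed to at most 0.251 CPM and 2 of them were at 0 in every sample. WT replicates 1 and 2 stood apart from the other WT samples: 6 Leydig cell markers summed to 708 and 685 CPM in these, against 966 and 911 CPM in WT replicates 3 and 4. The same pair lay below WT replicates 3 and 4 for 26 of the 51 genes (51%), against 22.4% of 16002 tested genes, and above them for 6 (11.8%), against 22.4%. This split was noticed in the data, and values without the pair are given beside some of the results against WT. Results given without such a value may also have moved.

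The extracellular matrix of the testis lies mainly in the basement membrane and collagen layers around each seminiferous tubule, in the walls of vessels and in the interstitium. Basement membranes are built from laminin and collagen IV networks that nidogens and perlecan link to each other, and cells hold on to them through integrins, receptors made of an alpha and a beta chain. Fibrillar collagens, collagen VI, fibronectin and elastic fibres form the looser matrix outside, and metalloproteinases and their tissue inhibitors turn it over. Iron is the cofactor of the enzymes that hydroxylate proline and lysine in collagen, and iron regulatory proteins bind iron-responsive elements, short hairpins in certain mRNAs.

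The genes spanned a wide range of levels in WT testis. Divided by the exon length of each gene, Sparc, a collagen-binding protein secreted by many cells, was highest at 104 ± 2.97 CPM per kilobase (SD, n = 4), followed by the metalloproteinase inhibitor gene Timp2 at 44.4 ± 5.76 CPM per kilobase. The beta integrin genes Itgb1 and Itgb5 followed at 15.2 and 14.6 CPM per kilobase, and Dcn, the gene of the collagen-binding proteoglycan decorin, at 13.0 CPM per kilobase. These 5 genes exceeded 10 CPM per kilobase and 17 genes lay under 1 CPM per kilobase, down to 0.185 ± 0.0386 for Lox, the gene of a collagen and elastin crosslinking enzyme. In this order most neighbours were not separated: the WT samples of only 7 of the 50 neighbouring pairs did not overlap. Laminin genes spanned from Lamb2 at 5.24 CPM per kilobase down to Lama4 at 0.577 CPM per kilobase, and integrin alpha chains from Itga1 at 4.60 to Itga5 at 0.354 CPM per kilobase. Counts in single samples ran from 3 for Timp1 to 6823 for Sparc, so values for Timp1, Mmp2, Lox, Lum, Itga5, Col5a2 and Fbln2, whose lowest counts were 18 or fewer, rest on the fewest reads. Other protein-coding genes overlap some of these: Timp2 shares 10183 bases with Cep295nl, Timp3 49094 with Syn3, Timp1 4572 with Syn1 and Itga1 1804 with Pelo. Whether exons overlap was not examined and the use of strand in counting is not stated, so part of these counts is uncertain.

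**Figure D1:**
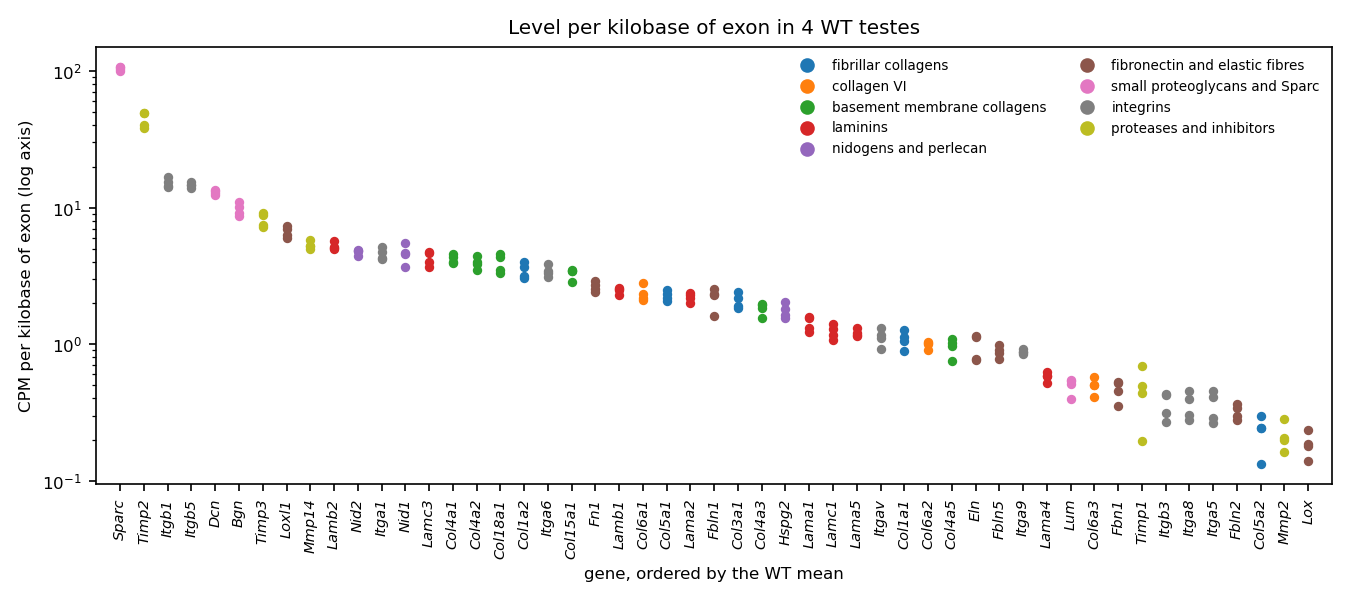
Level of each of the 51 genes in the 4 WT testes, as CPM per kilobase of exon on a log axis. Each point is 1 sample, colours give the role group, and genes are ordered by their WT mean from Sparc (104 CPM per kilobase) to Lox (0.185 CPM per kilobase).

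Between Irp1-/- and WT testis, a comparison that asks what loss of iron regulatory protein 1 does to these transcripts, 1 gene changed. Col18a1, which encodes the basement membrane collagen XVIII, fell in Irp1-/- to 0.751 of the WT level. All 51 genes passed the filter on low counts. The single call was 1.96% of them, beside 1.02% of all 16002 genes called in either direction and 0.444% called lower (edgeR's quasi-likelihood test, Benjamini-Hochberg adjusted p under 0.05). An unadjusted p under 0.05 was found for 11 genes (21.6%, 8 higher and 3 lower), against 12.1% of all genes. Groups did not overlap for 3 genes (5.88%), with Col18a1 lower and Itga6 and Timp2 higher in Irp1-/-, against 6.59% of all genes. No gene was without overlap when CPM was taken on plain totals. The median log2 fold change was 0.018, beside -0.00079 for all genes, and single genes ranged from -0.45 for Fbln2 to 0.85 for Timp1, neither of which passed the test. The balance of directions rested on WT replicates 1 and 2: 31 of 51 genes were above 0 with them and 23 without them, where the median was -0.030. In bulk tissue, fewer cells of a type and less RNA per cell cannot be told apart, here and in what follows.

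Between Irp2-/- and WT testis 3 genes changed, all higher in Irp2-/-: Col5a1, a fibrillar collagen gene, by 1.35-fold, Hspg2, the gene of the basement membrane proteoglycan perlecan, by 1.31-fold, and Fn1, the fibronectin gene, by 1.25-fold. They were 3 of 50 genes tested (6.00%), beside 1.21% of all 16154 genes called in either direction and 0.371% called higher (edgeR's quasi-likelihood test). Timp1 had too few counts to be tested. An unadjusted p under 0.05 was found for 15 genes (30.0%), 14 higher and Lama5 lower, against 9.42% of all genes. Groups did not overlap for 12 genes (24.0%), against 9.31% of all genes: Col1a1, Col3a1, Col5a1, Col6a1, Col6a2, Col18a1, Lamc1, Hspg2, Fn1, Fbn1 and Dcn were higher and Lama5 was lower in every Irp2-/- sample than in every WT sample. Of the 50 genes, 39 had a log2 fold change above 0 and the median was 0.13, beside 51.3% of all genes above 0 and a median of 0.0033. None of the 3 calls was kept without WT replicates 1 and 2 together, a fit that also has fewer samples. There, 0 genes passed the test in edgeR and 8 had an unadjusted p under 0.05. Col5a1 kept a log2 fold change of 0.43 while its SE went from 0.084 to 0.10, whereas Hspg2 fell to 0.26 and Fn1 to 0.23. Without the pair 32 of 50 genes were above 0, the median was 0.075, and 17 genes had no overlap, a count that can only stay or grow as samples are left out. The shares of all genes were not taken without the pair, so the counts of 8 and 17 have no background to be read against.

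Irp1-/- and Irp2-/- testes were also compared directly, which tests the difference between the knockouts without the WT samples that the 2 comparisons above share. In this comparison 7 genes changed, all lower in Irp1-/- than in Irp2-/-: Col18a1, Fn1, Nid1, Hspg2, Col5a1, Nid2 and Col4a2. They were 13.7% of the 51 genes tested, beside 4.69% of all 16281 genes called in either direction and 1.76% called lower (edgeR's quasi-likelihood test). An unadjusted p under 0.05 was found for 13 genes (25.5%, 2 higher and 11 lower), against 16.3% of all genes. Groups did not overlap for 15 genes (29.4%), against 15.1% of all genes. Of these, 13 were lower in Irp1-/- and Lama5 and Itga6 were higher. The median log2 fold change was -0.10, beside -0.0019 for all genes.

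**Figure D2:**
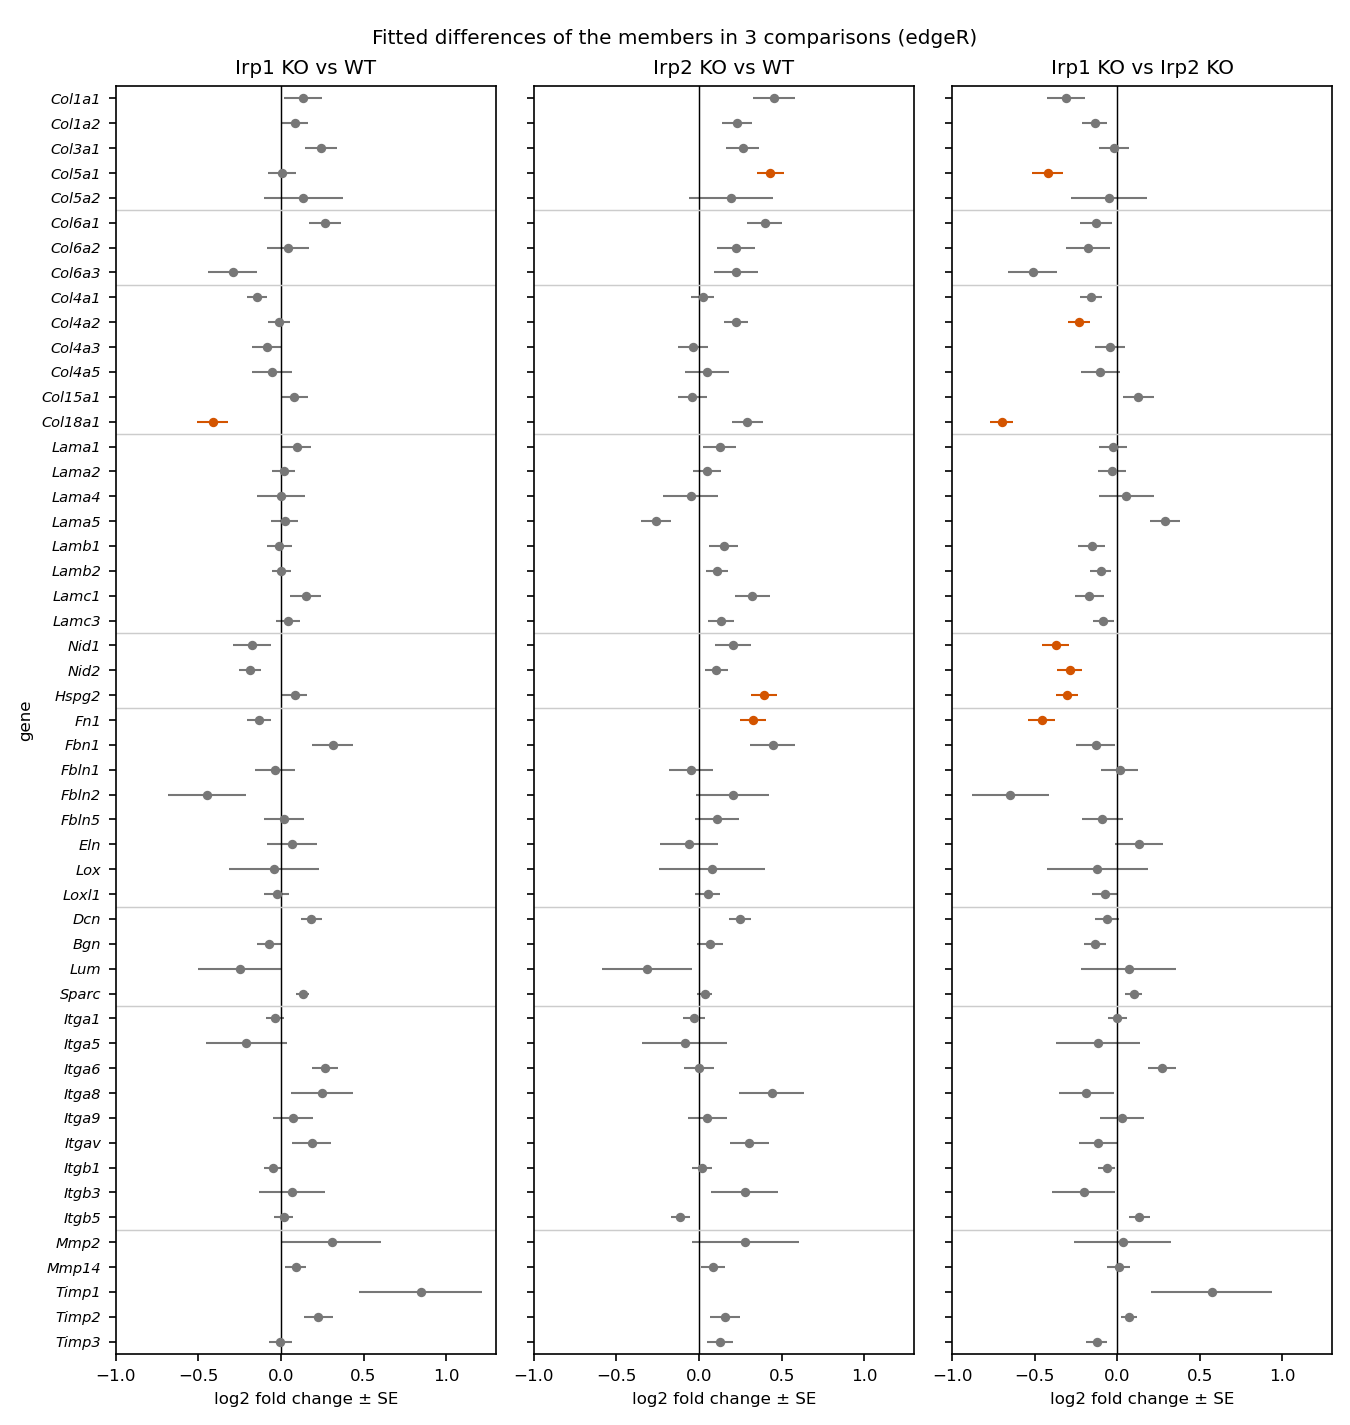
Log2 fold change of each gene in the 3 comparisons, with bars for the standard error and orange for an adjusted p under 0.05 in edgeR, and rows in the order of the role groups. The orange points are Col18a1 in Irp1-/- against WT, Col5a1, Hspg2 and Fn1 in Irp2-/- against WT, and 7 genes, all left of 0, in Irp1-/- against Irp2-/-.

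Collagen XVIII sits at basement membranes, where its C-terminal part can be released as endostatin. Its gene Col18a1 lies at chromosome 10 of mm10 from 77052178 to 77166530 on the minus strand. Its level was 22.4, 23.7, 30.9 and 29.3 CPM in WT replicates 1 to 4. Irp1-/- replicates 1, 2, 6 and 7 read 19.3, 22.4, 19.7 and 18.5 CPM, and the Irp2-/- samples 32.4, 33.5 and 31.7 CPM. All Irp1-/- samples were thus below all WT samples, with Irp1-/- replicate 2 (22.37 CPM) just under WT replicate 1 (22.42 CPM), and all Irp2-/- samples were above all others. Against WT, the log2 fold change was -0.41 in Irp1-/- (SE 0.094, adjusted p = 0.0473, edgeR) and 0.29 in Irp2-/- (SE 0.092, adjusted p = 0.204), so only the fall in Irp1-/- passed the test. This call was lost when any 1 of Irp1-/- replicates 1, 6 and 7 or WT replicates 3 and 4 was omitted, with an adjusted p of 0.0790 to 0.221, whereas without WT replicates 1 and 2 together it was -0.59 (adjusted p = 0.000206). The Irp2-/- value without that pair was 0.11 (adjusted p = 0.828). The direct difference between the knockouts was -0.70 (SE 0.070, adjusted p = 1.39e-06, edgeR) and was kept in all 14 other fits.

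RefSeq lists 2 start windows for Col18a1, each running from 250 bases before to 50 bases after a transcription start on GRCm38.p6. They are shown because this gene carried the clearest difference between the knockouts. Capitals mark motifs found on either strand. The search covered the GC box GGGCGG, the CCAAT box, the TATA motif written as TATAAA and the core of hypoxia elements, ACGTG, and none of these 4 motifs contains another. A GC box on the opposite strand is seen as CCGCCC.
Col18a1 upstream start, chr10:77166481-77166780, minus strand: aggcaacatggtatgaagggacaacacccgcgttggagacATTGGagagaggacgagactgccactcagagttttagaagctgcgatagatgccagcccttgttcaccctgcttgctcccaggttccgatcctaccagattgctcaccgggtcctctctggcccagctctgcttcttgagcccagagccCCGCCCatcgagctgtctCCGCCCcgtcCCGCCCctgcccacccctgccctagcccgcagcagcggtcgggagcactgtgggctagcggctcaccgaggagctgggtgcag
Col18a1 downstream start, chr10:77113656-77113955, minus strand: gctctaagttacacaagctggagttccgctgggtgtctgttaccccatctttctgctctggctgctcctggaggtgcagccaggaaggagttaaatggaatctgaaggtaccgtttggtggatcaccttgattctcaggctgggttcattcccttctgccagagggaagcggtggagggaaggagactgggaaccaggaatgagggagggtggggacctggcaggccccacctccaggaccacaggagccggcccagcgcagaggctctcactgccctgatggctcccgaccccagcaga
The upstream window held 3 GC boxes and 1 CCAAT on the opposite strand, at 63.3% G or C, and the downstream window held none of the 4 motifs, at 59.7% G or C. Which start the counted reads came from was not examined, since the table gives 1 value per gene.

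The other basement membrane collagens changed little. Collagen IV alpha 1 and alpha 2 chains form the common basement membrane network, and their genes Col4a1 and Col4a2 start from opposite strands of chromosome 8 and share 85 bases. Col4a2, at 11312805 to 11449287 of mm10, read 22.5, 28.4, 25.7 and 25.1 CPM in WT, 23.6, 25.9, 25.2 and 26.2 CPM in Irp1-/-, and 30.7, 30.3 and 27.6 CPM in Irp2-/- testes. Irp2-/- lay above every Irp1-/- sample but overlapped WT, whose replicate 2 was higher than Irp2-/- replicate 3. It was lower in Irp1-/- than in Irp2-/- (log2 fold change -0.23, SE 0.066, adjusted p = 0.0470, edgeR), a call that was lost without Irp1-/- replicate 1, 2 or 6 or Irp2-/- replicate 1 or 2, with an adjusted p of 0.0759 to 0.185, and by DESeq2 (adjusted p = 0.114). Against WT the log2 fold change was -0.012 in Irp1-/- (adjusted p = 0.970) and 0.22 in Irp2-/- (adjusted p = 0.200). Col4a1 had log2 fold changes of -0.14 in Irp1-/- (adjusted p = 0.333, edgeR) and 0.021 in Irp2-/- (adjusted p = 0.967) against WT. Between the knockouts the Col4a1 value was -0.16 (adjusted p = 0.209), with every Irp1-/- sample below every Irp2-/- sample. The ratio of Col4a1 to Col4a2 counts was 1.10 ± 0.0460 in WT (SD, n = 4), 1.01 ± 0.0704 in Irp1-/- (SD, n = 4) and 0.958 ± 0.0429 in Irp2-/- (SD, n = 3), with Irp2-/- samples all below WT and Irp1-/- samples overlapping both. Because the 2 genes overlap and the use of strand in counting is not stated, this ratio is uncertain by the reads of the shared stretch. Col4a3 and Col4a5, chains of a more restricted network, and Col15a1, the gene of the collagen most like collagen XVIII, had log2 fold changes between -0.10 and 0.13 in the 3 comparisons, and none passed the test. Col15a1 lies 7.09 Mb from Aco1 on chromosome 4, and its log2 fold change in Irp1-/- against WT was 0.082 (adjusted p = 0.755, edgeR).

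The window at the Col4a2 start is shown because it lies in the stretch from which both chains are transcribed.
Col4a2, chr8:11312555-11312854, plus strand: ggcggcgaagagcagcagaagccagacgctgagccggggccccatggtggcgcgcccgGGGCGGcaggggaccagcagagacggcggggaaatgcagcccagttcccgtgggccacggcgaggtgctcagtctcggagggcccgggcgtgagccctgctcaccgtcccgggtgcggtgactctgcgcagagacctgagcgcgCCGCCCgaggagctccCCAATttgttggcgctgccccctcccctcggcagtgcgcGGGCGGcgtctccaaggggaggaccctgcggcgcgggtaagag
It held 3 GC boxes and 1 CCAAT and no TATAAA, at 73.7% G or C. The window of Col4a1, whose start lies on the other strand, held 1 GC box and 1 CCAAT at 74.0% G or C.

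Nidogens and perlecan differed between the knockouts as a whole group: all 3 genes were lower in Irp1-/- than in Irp2-/-, with no overlap between samples. Hspg2, the perlecan gene at chromosome 4 of mm10 from 137468751 to 137570630, read 21.9, 23.2, 25.7 and 28.9 CPM in WT and 27.2, 24.0, 28.4 and 26.6 CPM in Irp1-/- testes. Irp2-/- samples read 34.7, 31.5 and 32.0 CPM. Every Irp2-/- sample was above every other sample, while WT and Irp1-/- overlapped. Hspg2 rose in Irp2-/- against WT (log2 fold change 0.39, SE 0.079, adjusted p = 0.0101, edgeR) and in each fit without 1 sample (adjusted p up to 0.0480). Without WT replicates 1 and 2 together the log2 fold change was 0.26 (adjusted p = 0.252). Between the knockouts it was -0.30 (SE 0.068, adjusted p = 0.00937) and was kept in every fit without 1 sample. Hspg2 lies 97.3 Mb from Aco1 on the same chromosome, and in Irp1-/- against WT its log2 fold change was 0.085 (adjusted p = 0.712).
Hspg2, chr4:137468553-137468852, plus strand: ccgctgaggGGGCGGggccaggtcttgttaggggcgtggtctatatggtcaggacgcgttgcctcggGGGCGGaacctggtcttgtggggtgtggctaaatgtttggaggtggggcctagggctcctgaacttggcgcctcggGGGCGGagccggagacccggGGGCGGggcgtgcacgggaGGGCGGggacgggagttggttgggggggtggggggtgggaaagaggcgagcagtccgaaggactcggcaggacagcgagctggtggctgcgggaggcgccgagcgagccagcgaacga
This window, shown because Hspg2 was the one gene called against both other genotypes in every fit without 1 sample, held 5 GC boxes, the most of any member window, and none of the other 3 motifs, at 70.3% G or C.

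Nidogen 1 and nidogen 2 bind both laminin and collagen IV. Nid1, at chromosome 13 of mm10 from 13437602 to 13512275, read 22.4, 28.1, 28.1 and 33.3 CPM in WT, 23.2, 27.9, 22.1 and 26.1 CPM in Irp1-/-, and 34.97, 31.9 and 29.4 CPM in Irp2-/- testes. The WT samples spread over most of the range of both knockouts, and the knockouts did not overlap each other. Nid1 was lower in Irp1-/- than in Irp2-/- (log2 fold change -0.37, SE 0.080, adjusted p = 0.00725, edgeR), and the adjusted p was 0.0869 when all 11 samples shared 1 fit. Nid2, at chromosome 14 from 19751257 to 19811787, read 23.9, 23.4, 23.6 and 21.5 CPM in WT, 19.2, 18.9, 21.8 and 21.6 CPM in Irp1-/-, and 22.7, 25.3 and 26.5 CPM in Irp2-/- testes. Irp1-/- samples were below all Irp2-/- samples and overlapped WT only through WT replicate 4. The log2 fold change between the knockouts was -0.29 (SE 0.077, adjusted p = 0.0320, edgeR), with an adjusted p of 0.112 to 0.154 without Irp1-/- replicate 1 or 2 or Irp2-/- replicate 2 or 3, and of 0.0590 by DESeq2. In Irp1-/- against WT, neither nidogen gene passed the test, at -0.19 for Nid2 (adjusted p = 0.222) and -0.17 for Nid1 (adjusted p = 0.613), the latter at -0.31 without WT replicates 1 and 2 (adjusted p = 0.162). Nid2 shares 386 bases with Rtraf, so part of its counts is uncertain.

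**Figure D3:**
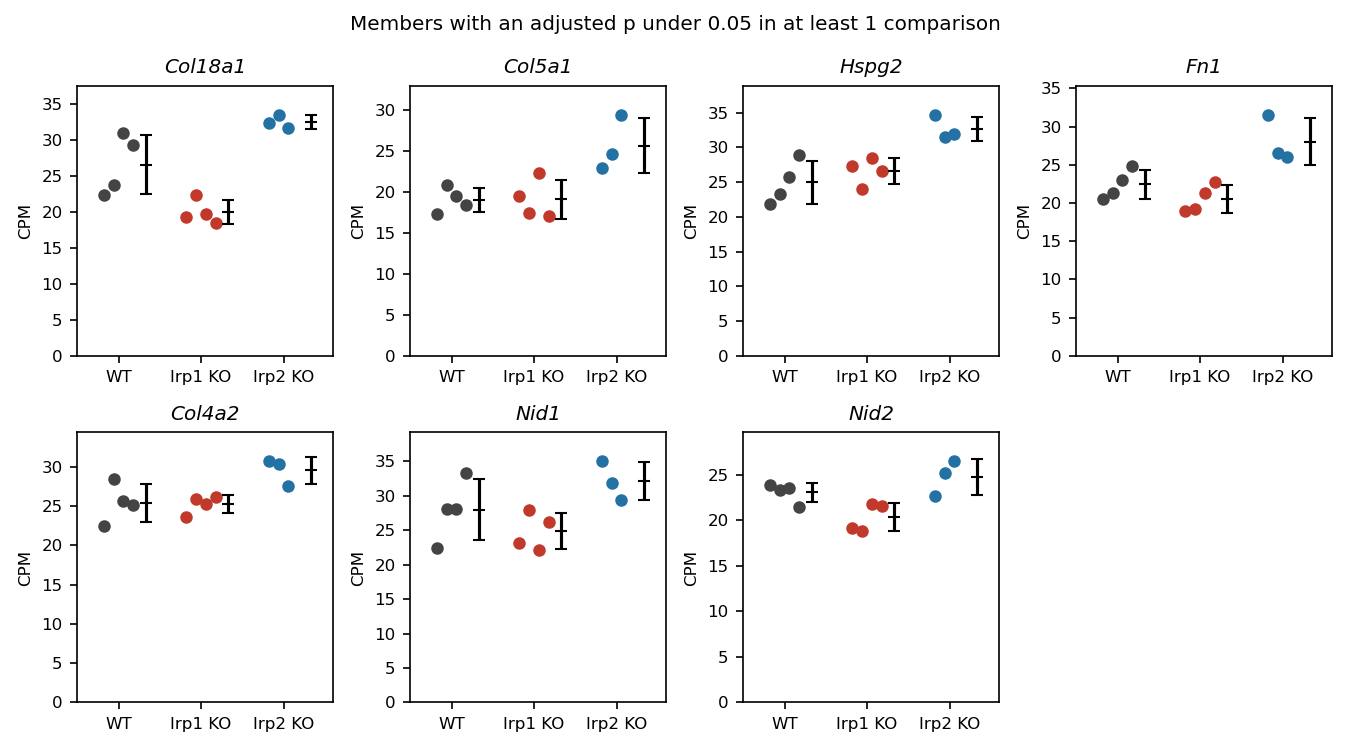
CPM in every sample of the 7 genes with an adjusted p under 0.05 in at least 1 comparison, with points for samples and a bar for the mean ± SD of each genotype (n = 4 WT, 4 Irp1-/-, 3 Irp2-/-). Irp2-/- points lie above all Irp1-/- points in each panel, and for Col18a1 the Irp1-/- points also lie below all WT points, from 18.5 to 22.4 CPM.

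Laminins are trimers of an alpha, a beta and a gamma chain, and 0 of the 8 laminin genes passed the test in any comparison by edgeR or DESeq2. At an unadjusted p under 0.05 these were 0 genes in Irp1-/- against WT, 2 in Irp2-/- against WT and 1 between the knockouts. Lamc1, the most widely used gamma chain, read 8.22, 8.91, 9.77 and 10.7 CPM in WT, 10.4, 10.6, 10.1 and 10.7 CPM in Irp1-/-, and 12.3, 11.9 and 10.9 CPM in Irp2-/- testes. Irp2-/- samples were the highest throughout, and the Irp1-/- samples lay around the highest WT samples, with replicate 7 just above WT replicate 4. The log2 fold change was 0.32 in Irp2-/- against WT (SE 0.10, adjusted p = 0.185, edgeR) and 0.20 without WT replicates 1 and 2. Lama5, an alpha chain found in most adult basement membranes, was the one gene whose Irp2-/- samples all lay below WT: it read 11.7, 10.8 and 11.8 CPM, under all WT samples (13.1 to 14.9 CPM) and all Irp1-/- samples (12.4 to 15.0 CPM). Its log2 fold change was -0.26 in Irp2-/- against WT (adjusted p = 0.235, edgeR) and 0.29 in Irp1-/- against Irp2-/- (adjusted p = 0.0791), so neither passed the test. The log2 fold changes of Lama1, Lama2, Lama4, Lamb1, Lamb2 and Lamc3 lay between -0.16 and 0.15 in the 3 comparisons.

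Fibrillar collagens give tissue its tensile strength, and all 5 genes had a log2 fold change above 0 in both knockouts against the shared WT samples, with medians of 0.14 in Irp1-/- and 0.26 in Irp2-/-. In neither knockout did this hold for all 5 without WT replicates 1 and 2. There, Col1a1 was at -0.0028, Col1a2 at -0.053 and Col5a2 at -0.092 in Irp1-/-, and Col5a2 at -0.039 in Irp2-/-. Their summed level was 52.3 to 61.3 CPM in WT, 58.7 to 63.5 CPM in Irp1-/- and 67.0 to 74.4 CPM in Irp2-/- testes, so Irp2-/- did not overlap the other genotypes. Col5a1, whose chain regulates the width of collagen fibrils, lies at chromosome 2 of mm10 from 27886381 to 28039510. It read 17.3, 20.8, 19.5 and 18.4 CPM in WT, 19.5, 17.4, 22.3 and 17.1 CPM in Irp1-/-, and 22.9, 24.6 and 29.4 CPM in Irp2-/- testes. Every Irp2-/- sample exceeded every other sample, though Irp2-/- replicate 1 exceeded Irp1-/- replicate 6 by little. Col5a1 rose in Irp2-/- against WT (log2 fold change 0.43, SE 0.084, adjusted p = 0.00762, edgeR) and was lower in Irp1-/- than in Irp2-/- (-0.42, SE 0.096, adjusted p = 0.0137). Without Irp2-/- replicate 3 these adjusted p values were 0.0855 and 0.0733, without Irp1-/- replicate 2 the second was 0.0544, and without WT replicates 1 and 2 together the first was 0.0663 at a log2 fold change of 0.43. Against WT, Irp1-/- differed by 0.0065 (adjusted p = 0.988).

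Col1a1 and Col1a2 encode the chains of collagen I. Col1a1 read 6.26, 5.30, 6.72 and 7.51 CPM in WT, 7.40, 6.45, 6.94 and 7.79 CPM in Irp1-/-, and 7.98, 10.3 and 8.25 CPM in Irp2-/- testes, with Irp2-/- replicate 2 the highest of all and no overlap between Irp2-/- and the others. The log2 fold change in Irp2-/- against WT was 0.45 (SE 0.13, adjusted p = 0.0951, edgeR), and 0.31 without WT replicates 1 and 2. For Col1a2 it was 0.23 (adjusted p = 0.362), and 0.085 without that pair. The ratio of Col1a1 to Col1a2 counts was 0.347 ± 0.0202 in WT (SD, n = 4), 0.361 ± 0.0281 in Irp1-/- (SD, n = 4) and 0.405 ± 0.0192 in Irp2-/- (SD, n = 3). Col3a1, a fibrillar collagen of vessels and loose tissue, read 10.2, 10.6, 13.4 and 12.1 CPM in WT, 11.9, 13.2, 14.3 and 15.6 CPM in Irp1-/-, and 13.7, 13.9 and 14.1 CPM in Irp2-/- testes. WT replicates 1 and 2 were the lowest of all samples and Irp1-/- replicate 7 the highest. Its log2 fold change was 0.24 in Irp1-/- (adjusted p = 0.285, edgeR) and 0.26 in Irp2-/- (adjusted p = 0.307), and without the pair of low WT samples 0.10 and 0.13.

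Collagen VI forms beaded filaments beside basement membranes, and its summed level was 19.3 to 23.9 CPM in WT, 21.3 to 23.4 CPM in Irp1-/- and 25.2 to 26.6 CPM in Irp2-/- testes. Col6a1 read 8.95, 8.66, 11.4 and 9.61 CPM in WT, 11.7, 13.1, 10.8 and 10.8 CPM in Irp1-/-, and 13.9, 12.0 and 12.2 CPM in Irp2-/- testes. WT replicate 3 reached into the Irp1-/- range and stayed under the Irp2-/- range. Against WT it differed by a log2 fold change of 0.40 in Irp2-/- (SE 0.11, adjusted p = 0.0688, edgeR) and 0.27 in Irp1-/- (SE 0.098, adjusted p = 0.228), and the first passed the test without WT replicate 3 (adjusted p = 0.0197). Without WT replicates 1 and 2 these were 0.28 and 0.15. Col6a3 read 4.42, 5.48, 6.27 and 5.41 CPM in WT, 4.67, 4.56, 5.30 and 2.95 CPM in Irp1-/-, and 6.21, 5.98 and 6.66 CPM in Irp2-/- testes. Irp1-/- replicate 7 was the lowest sample, and the knockouts did not overlap. The log2 fold change between the knockouts was -0.51 (SE 0.15, adjusted p = 0.0529, edgeR) and passed the test without Irp1-/- replicate 6 (adjusted p = 0.0201).

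Fibronectin is laid down as a provisional matrix that integrins assemble. Its gene Fn1, at chromosome 1 of mm10 from 71585473 to 71653280, read 20.5, 21.4, 23.05 and 24.8 CPM in WT, 18.9, 19.2, 21.3 and 22.8 CPM in Irp1-/-, and 31.5, 26.6 and 26.0 CPM in Irp2-/- testes. Irp2-/- samples were above all others, and Irp1-/- and WT overlapped. Fn1 rose in Irp2-/- against WT (log2 fold change 0.33, SE 0.080, adjusted p = 0.0433, edgeR), but the adjusted p was 0.0623 to 0.218 when Irp2-/- replicate 1 or 2 or any 1 of WT replicates 1, 2 and 3 was omitted, 0.0780 by DESeq2, and 0.498 without WT replicates 1 and 2 together. Between the knockouts the log2 fold change was -0.46 (SE 0.082, adjusted p = 0.00140) and the call was kept in all 14 other fits. In Irp1-/- against WT it was -0.13 (adjusted p = 0.495).

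Elastic fibres have an elastin core on fibrillin microfibrils, with fibulins and lysyl oxidases needed for their assembly. Fbn1, the fibrillin 1 gene, read 4.25, 5.48, 6.27 and 6.29 CPM in WT, 6.56, 6.09, 7.59 and 7.60 CPM in Irp1-/-, and 6.74, 8.18 and 7.88 CPM in Irp2-/- testes. WT replicate 1 was the lowest, and the Irp2-/- samples lay above all WT samples. The log2 fold change was 0.45 in Irp2-/- (SE 0.14, adjusted p = 0.137, edgeR) and 0.31 in Irp1-/- (SE 0.13, adjusted p = 0.288), which without WT replicate 1 were 0.33 and 0.20 and without WT replicates 1 and 2 were 0.27 and 0.14. Fbln2 (fibulin 2) differed by -0.65 between the knockouts (adjusted p = 0.141) at 0.945 to 1.84 CPM over both. Eln, Lox, Loxl1, Fbln1 and Fbln5 had log2 fold changes between -0.12 and 0.13 in the 3 comparisons, and none passed the test. Without WT replicates 1 and 2, Eln was at -0.18 in Irp1-/- and -0.31 in Irp2-/- against WT, and Fbln1 at -0.19 and -0.20. Loxl1 lies 3.41 Mb from Ireb2 on chromosome 9, and its log2 fold change in Irp2-/- against WT was 0.051 (adjusted p = 0.924).

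Decorin binds collagen fibrils, and Dcn read 24.2, 26.0, 24.8 and 25.8 CPM in WT, 29.8, 29.1, 25.2 and 30.7 CPM in Irp1-/-, and 30.8, 31.3 and 27.5 CPM in Irp2-/- testes. Only Irp1-/- replicate 6 of the knockout samples fell within the WT range. Dcn differed from WT by a log2 fold change of 0.18 in Irp1-/- (SE 0.064, adjusted p = 0.200, edgeR) and 0.25 in Irp2-/- (SE 0.066, adjusted p = 0.0688). Sparc read 275, 279.6, 292 and 289 CPM in WT, 317, 289, 308 and 331 CPM in Irp1-/-, and 302, 284 and 283 CPM in Irp2-/- testes. Irp1-/- samples 1, 6 and 7 were above all WT samples and replicate 2 was inside their range. Its log2 fold change was 0.13 in Irp1-/- against WT (SE 0.042, adjusted p = 0.145, edgeR), which passed the test without Irp1-/- replicate 2 (adjusted p = 0.0410). Bgn and Lum, the biglycan and lumican genes, had log2 fold changes between -0.31 and 0.069 in the 3 comparisons, the widest for Lum at 10 to 26 counts per sample.

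Of the integrin genes, 0 of 9 passed the test in any comparison by edgeR or DESeq2, and their unadjusted p was under 0.05 for 1 gene in Irp1-/- against WT, 2 in Irp2-/- against WT and 1 between the knockouts. Itga6, an alpha chain of laminin receptors, read 14.5, 14.9, 13.6 and 16.7 CPM in WT, 18.01, 17.004, 17.2 and 19.9 CPM in Irp1-/-, and 16.5, 14.0 and 14.0 CPM in Irp2-/- testes. The Irp1-/- samples were the 4 highest of all 11. Itga6 had log2 fold changes of 0.27 in Irp1-/- against WT (SE 0.080, adjusted p = 0.117, edgeR), 0.27 against Irp2-/- (adjusted p = 0.0831), and -0.00035 in Irp2-/- against WT (adjusted p = 0.999). In Irp2-/- against WT, Itga8 and Itgav, alpha chains that bind matrix proteins with an RGD sequence, had log2 fold changes of 0.44 (adjusted p = 0.460) and 0.30 (adjusted p = 0.330), the latter 0.17 without WT replicates 1 and 2. The summed level of all 9 integrin genes was 189 to 195 CPM in WT, 187 to 204 CPM in Irp1-/- and 189 to 195 CPM in Irp2-/- testes.

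None of the 5 protease and inhibitor genes passed the test in the main edgeR fits or by DESeq2. Timp2 passed in Irp1-/- against WT only in an edgeR fit with the replicate number as a block. An unadjusted p under 0.05 was found in the main fits for 2, Timp1 and Timp2, both in Irp1-/- against WT. Timp2, the inhibitor of metalloproteinases that also helps to activate Mmp2, read 149, 143, 184 and 181 CPM in WT and 186 to 207 CPM in Irp1-/- testes, with WT replicates 1 and 2 the lowest of all samples. Its log2 fold change in Irp1-/- against WT was 0.23 (adjusted p = 0.345, edgeR), and 0.076 without that pair. Timp2 shares 10183 bases with Cep295nl, so part of its counts is uncertain. Timp1 had the largest fitted difference of the list in Irp1-/- against WT, 0.85 (adjusted p = 0.345), but on 3 to 17 counts per sample, with overlapping groups. Mmp2, Mmp14 and Timp3 had log2 fold changes between -0.12 and 0.31 in the 3 comparisons.

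**Figure D4:**
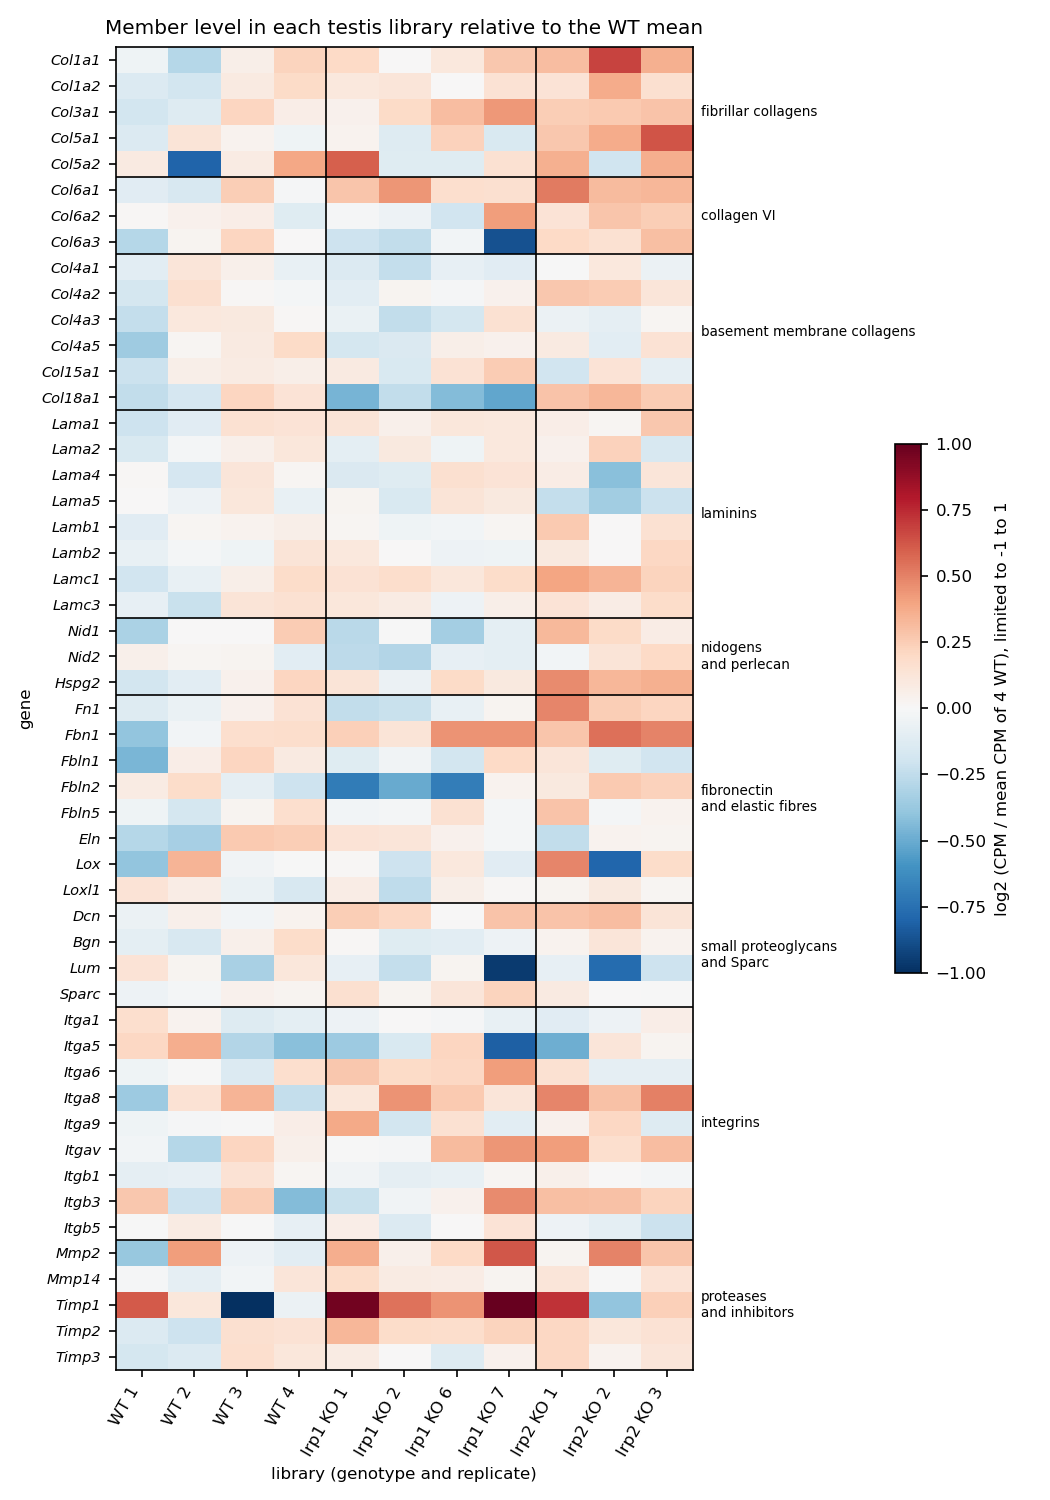
Level of each gene (rows, by role group) in each testis sample (columns), as log2 of its CPM over the mean CPM of the 4 WT samples, with red above and blue below the WT mean and the colour scale ending at -1 and 1. Columns of WT replicates 1 and 2 are paler or bluer than those of WT replicates 3 and 4 for many rows (both lower for 26 of 51 genes), and Col18a1 is blue in all Irp1-/- and red in all Irp2-/- columns.

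In a wider list of 83 other matrix and receptor genes, the shares called were near those of all genes: 1 of 76 tested in Irp1-/- against WT (1.32%, beside 1.02%), 1 of 77 in Irp2-/- against WT (1.3%, beside 1.21%) and 3 of 78 between the knockouts (3.85%, beside 4.69%), with medians of 0.063, 0.099 and -0.020. Prelp, which encodes a small proteoglycan that anchors basement membranes to the underlying matrix, was called in all 3. It read 10.8, 10.5, 10.3 and 9.27 CPM in WT, 8.03, 7.44, 7.09 and 7.41 CPM in Irp1-/-, and 15.9, 14.4 and 11.7 CPM in Irp2-/- testes, and no 2 genotypes overlapped. It fell in Irp1-/- against WT (log2 fold change -0.45, SE 0.095, adjusted p = 0.0138, edgeR) and rose in Irp2-/- against WT (0.46, SE 0.10, adjusted p = 0.0227), but without WT replicates 1 and 2 neither call held, at -0.39 (adjusted p = 0.148) and 0.52 (adjusted p = 0.108). Between the knockouts the difference was -0.91 (SE 0.11, adjusted p = 1.2e-05). Itga11, a receptor chain for fibrillar collagen, was lower in Irp1-/- than in Irp2-/- (-0.49, adjusted p = 0.00676), and Col14a1, a fibril-associated collagen gene, was higher (0.40, adjusted p = 0.0144). Fits without single samples were not made for these genes.

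Summed markers of some cell types that make matrix moved with some of these differences, though not every marker of a list did. The 6 endothelial markers summed to 39.5 to 41.7 CPM in WT, 37.8 to 41.3 CPM in Irp1-/- and 45.7 to 50.3 CPM in Irp2-/- testes, so Irp2-/- was above both other genotypes, as Hspg2, Col18a1 and Fn1 were. Of these 6, 4 had a log2 fold change above 0 in Irp2-/- against WT and 2 had one below 0. Vwf, the von Willebrand factor gene, was the largest part of the sum, with means of 17.3 CPM in WT and 22.3 CPM in Irp2-/-. Means in WT and Irp2-/- were 3.56 and 3.06 CPM for Pecam1 and 2.86 and 2.69 CPM for Kdr, so both were lower in Irp2-/-. Vwf rose in Irp2-/- against WT (log2 fold change 0.37, adjusted p = 0.0127, edgeR). It was lower in Irp1-/- than in Irp2-/- (-0.47, adjusted p = 0.000551), while the other 5 did not pass the test. Leydig cell markers summed to 685 to 966 CPM in WT, 918 to 1121 CPM in Irp1-/- and 707 to 923 CPM in Irp2-/- testes. All 6 had a log2 fold change above 0 in Irp1-/- against WT with none called, but the low WT replicates 1 and 2 weigh on this. Lhcgr read 2.40 and 1.87 CPM in that pair and 5.17 and 4.69 CPM in WT replicates 3 and 4, with an Irp1-/- mean of 4.67 CPM. Hsd3b1, at 44.9 to 53.2 CPM in Irp1-/-, was above all WT samples (29.9 to 42.6 CPM). Fits without the pair were not read for markers. Of the 6, 2 (Hsd3b1 and Insl3) were higher in Irp1-/- than in Irp2-/-. Sertoli cell markers summed to 164 to 175 CPM in WT, 179 to 198 CPM in Irp1-/- and 162 to 181 CPM in Irp2-/- testes, so every Irp1-/- sample was above every WT sample. All 7 had a log2 fold change above 0 in Irp1-/- against WT, where 0 passed the test in edgeR and 3 had an unadjusted p under 0.05, and 3 of 7 (Amh, Fshr and Rhox5) were higher in Irp1-/- than in Irp2-/-. Peritubular myoid markers summed to 123 to 142 CPM in WT, 131 to 144 CPM in Irp1-/- and 131 to 147 CPM in Irp2-/- testes, and interstitial fibroblast markers to 26.8 to 30.7, 27.6 to 30.6 and 26.5 to 29.1 CPM, with none of either list called. No marker of these 5 lists was at 0 in every sample. Their part in the matrix results was not tested.

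**Figure D5:**
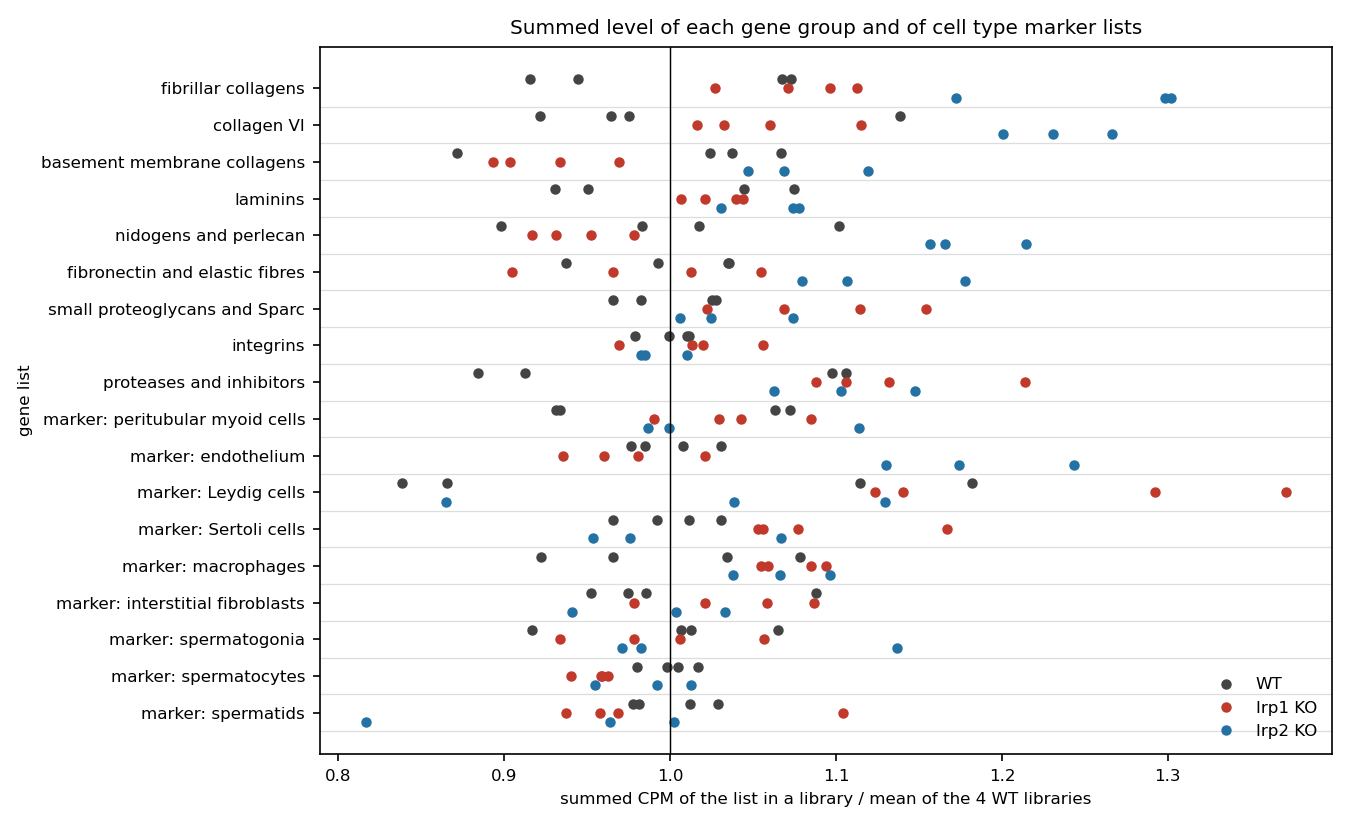
Summed CPM of each role group and of the testis cell type marker lists in every sample, divided by the mean of the 4 WT samples (horizontal axis, 1 is the WT mean), with dark grey points for WT, red for Irp1-/- and blue for Irp2-/-. Irp2-/- points lie right of all others for fibrillar collagens (67.0 to 74.4 CPM), collagen VI, nidogens and perlecan, fibronectin and elastic fibres, and endothelial markers, and for Leydig cell markers the 4 WT points fall into a lower and an upper pair.

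Start windows were found in RefSeq for 34 of the 51 genes, as 38 windows of 300 bases, and none was matched for Fn1, Nid2, Dcn, Itga6, Col1a1 or Lamc1. A GC box (GGGCGG on either strand) was present in 26 of the 38 windows (68.4%), against 35.7% of 32851 windows of all genes. CCAAT was present in 28.9% against 37.4%, ACGTG in 18.4% against 19.6%, and TATAAA in 1 window, that of Col3a1 (2.63%), against 13.6%. The median share of G or C was 60.3% in the windows of the list and 52.7% in all windows. These are descriptions of letters in a window and say nothing about which factors bind there.

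A hairpin pattern of the iron-responsive element type was searched in coding transcripts of GENCODE M21 on GRCm38: a C, a 5-base arm, the 6-base loop CAGTGN and a second 5-base arm that pairs with the first, with G-U pairs allowed. It was found in 6 of 8 genes known for such elements and in 294 of 21877 protein-coding genes (1.34%). Of the 51 genes 1 held it (1.96%), Col4a3, in its coding sequence and not in an end region. It is shown beside the element of the ferritin heavy chain gene Fth1, with the loop in capitals.
Col4a3, chr1:82657180-82657196, coding sequence: caggaaCAGTGAttttt
Fth1, chr19:9982738-9982754, 5' end of the mRNA: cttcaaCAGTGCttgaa
Col4a3 had log2 fold changes of -0.086 in Irp1-/- (adjusted p = 0.775, edgeR) and -0.039 in Irp2-/- (adjusted p = 0.957) against WT. None of the 7 genes that changed in any comparison held the pattern.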

How the data were processed

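Whole testis polyadenylated RNA was sequenced as paired-end reads on an Illumina NovaSeq with a stranded mRNA kit. The authors deposited raw read counts per gene, which an nf-core pipeline had produced on mm10. The counting tool, its use of strand and whether the whole numbers are rounded estimates are not given in the sources used here. The tests used edgeR 4.0.16 in R 4.3.3 (filterByExpr, TMM, robust quasi-likelihood test, Benjamini-Hochberg adjustment over all tested genes), with the samples of the 2 genotypes compared and no covariate. CPM used TMM-scaled totals over all 11 samples. Scripts were tested on simulated data. Alternatives were other scalings and filters, DESeq2 1.42.0, a fit of all samples, the replicate number as a block and leaving out samples. The members and gene lists were chosen with earlier results of these data known. Values in every sample are given for members with an adjusted p under 0.05 in any comparison and for those of smallest p until 8 per comparison, and some other members were added after their values were seen. In the column names, 1 sample (Irp1-/- replicate 6) bears an R where all others bear an L, which is not explained.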

Additional observations from a re-analysis of the deposited data

Results flagged for a closer look

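In the WT and Irp1-/- groups of 4 samples each, 112 sets of values (the 51 genes, Aco1, Ireb2 and the 3 other matrix genes that changed) were screened for 1 sample far from the rest. Such a sample was found in 2 sets, while chance alone gives about 1 in 20, or 5.6 here. Col15a1, the collagen XV gene, read 17.1 CPM in WT replicate 1, against 20.6 to 20.98 CPM in the other WT samples, a gap of 0.907 of the range of the group. Fbln5, the fibulin 5 gene, read 5.95 CPM in Irp1-/- replicate 6, against 5.25 to 5.28 CPM in the other Irp1-/- samples, a gap of 0.961 of the range.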

How the results depend on the processing

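Of the values for single genes, 444 did not change sign or call under the alternatives, 35 were no longer past it, 12 came to pass it and 9 changed sign. Of the counts and medians, 96 stayed close and 19 moved. Where no cause is named, the cause was not tested. In Irp1-/- against WT, the 1 call was lost with upper quartile scaling (0 genes, Col18a1 at an adjusted p of 0.0548) and with no filter (0 genes, 0.0511), and leaving out 1 sample gave 0 to 2 calls. The count without overlap was 0 with CPM on plain totals and 3 to 7 without 1 sample. In Irp2-/- against WT, 5 genes were called with no filter, with Col6a1 and Dcn added, 0 without WT replicates 1 and 2 (an alternative chosen after seeing the data) and 2 to 4 without 1 sample. Between the knockouts 5 to 7 genes were called without 1 sample, and the median was -0.11 to -0.068, the latter without Irp1-/- replicate 2. Sign changes were found in Irp1-/- against WT only. For Col5a1, Col4a2 and Hspg2 the values were near 0: leaving out 1 sample put Col5a1 at -0.079 to 0.054 (below 0 when Irp1-/- replicate 1 or 6 or WT replicate 1 or 4 was omitted, at -0.0031, -0.079, -0.032 and -0.0069) and Col4a2 at -0.064 to 0.046 (0.019 and 0.046 when Irp1-/- replicate 1 or WT replicate 2 was omitted), and Hspg2 at -0.044 without WT replicates 1 and 2. Nid1 went from -0.17 to 0.013 with the replicate number as a block.

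With the replicate number as a block, 3 genes (Col6a1, Nid2 and Timp2) were called in Irp1-/- against WT, where the median was 0.079, Col5a1 was at -0.051, Nid1 at 0.013 and Col18a1 at -0.16 (adjusted p = 0.483). That fit compares the genotypes only within the shared numbers 1 and 2. The block gave 2 calls in Irp2-/- against WT, without Fn1 (adjusted p = 0.0655), and 7 between the knockouts. Correlations across genes between same-numbered samples were low, at -0.0091 to 0.076. Irp1-/- replicate 1 and Irp2-/- replicates 1 and 2 correlated best with the WT sample of their own number (0.0588, 0.0448 and 0.0763). Irp1-/- replicate 2 correlated best with WT replicate 4 (0.0373) and Irp2-/- replicate 3 with WT replicate 1 (0.0198). The labels do not say whether a shared number marks a pairing.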
